A study of Mus musculus with 6 samples.

Results

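The proteasome genes of the mouse kidney were examined after oral exposure to cationic polystyrene nanoplastic. Members were the protein-coding genes whose symbol begins with Psma, Psmb, Psmc, Psmd, Psme, Psmf or Psmg followed by a digit, and 51 of the 57180 genes listed met this rule. Of these, 49 encode proteasome subunits, activators, an inhibitor or assembly chaperones. The other 2, Psmc3ip and Psme3ip1, carry the name of a protein they bind and encode no proteasome part. Their own values are described apart, but counts, medians and scores given over all members include them. Total RNA was sequenced from the kidneys of 6 male wild-type C57BL/6J mice, 7 weeks old at the start. The vehicle group of 3 mice received deionized water (0 mg/kg) and the nanoplastic group of 3 mice received the nanoparticles orally at 200 mg/kg, both every day over 6 weeks. The labels count 3 mice in each group, matching the 3 libraries, and are read here as 1 library per mouse.

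The proteasome is the protease that degrades proteins tagged with ubiquitin. Its 20S core is a barrel of alpha and beta rings in which the beta subunits encoded by Psmb5, Psmb6 and Psmb7 cut the substrate. The 19S regulatory particle caps the barrel, removes the ubiquitin and unfolds the substrate with a ring of ATPases, while PA28 and PA200 are alternative caps. Interferon induces Psmb8, Psmb9 and Psmb10, which replace the constitutive catalytic subunits and give the immunoproteasome, best known for making peptides for MHC class I. When the proteasome is inhibited, the transcription factor NRF1 (Nfe2l1) raises the subunit genes together through antioxidant response elements.

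The gene tables held between 19408534 and 26292760 expected counts per library. Defining kidney transcripts were present in each library: Lrp2 and Slc34a1 of the proximal tubule, Umod of the thick limb and Nphs1 of podocytes, with Lrp2 between 7197 and 8748 CPM. Umod was lower in nanoplastic mice without overlap, at 3961, 4341 and 3410 CPM in vehicle and 3208, 3303 and 2836 CPM in nanoplastic mice (log2 fold change -0.33, SE 0.10, edgeR adjusted p = 0.542). Slc12a1, also of the thick limb, overlapped, at 0.02 (SE 0.13) in log2 fold change. Of 11 kidney epithelium markers 7 were below 0 and 4 above, with Aqp2 at 0.65 (SE 0.34) and highest in nanoplastic 1. The part of these markers in the member values was not tested. The 49 proteasome genes took 0.332%, 0.343% and 0.317% of the counts in vehicle mice 1, 2 and 3, and 0.316%, 0.315% and 0.317% in nanoplastic mice 1, 2 and 3. CPM here means counts scaled to a common library total and adjusted between libraries by the trimmed mean of M values (TMM).

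Promoter sequences are shown for the catalytic pair that exchanges at the same site of the core (Psmb5 and Psmb8), for Psmb6, and for Psme4, which had the lowest p among the members. Each is the 250 bases before the transcription start, 5′ to 3′ on the gene's strand, from RefSeq on build GRCm38.p6, and capitals mark matches to the antioxidant response element core TGACNNNGC.
Psmb5 (chr14:54617996-54618245, minus strand): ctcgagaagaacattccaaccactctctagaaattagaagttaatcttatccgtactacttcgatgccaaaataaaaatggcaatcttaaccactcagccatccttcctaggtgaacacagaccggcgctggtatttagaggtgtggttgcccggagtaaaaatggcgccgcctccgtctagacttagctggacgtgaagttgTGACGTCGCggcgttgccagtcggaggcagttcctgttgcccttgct
Psmb6 (chr11:70525107-70525356, plus strand): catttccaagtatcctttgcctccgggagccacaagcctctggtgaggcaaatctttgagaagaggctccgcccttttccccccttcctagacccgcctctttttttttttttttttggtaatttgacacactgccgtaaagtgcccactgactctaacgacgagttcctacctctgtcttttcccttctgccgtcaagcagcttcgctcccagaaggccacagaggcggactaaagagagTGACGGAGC
Psmb8 (chr17:34197945-34198194, plus strand): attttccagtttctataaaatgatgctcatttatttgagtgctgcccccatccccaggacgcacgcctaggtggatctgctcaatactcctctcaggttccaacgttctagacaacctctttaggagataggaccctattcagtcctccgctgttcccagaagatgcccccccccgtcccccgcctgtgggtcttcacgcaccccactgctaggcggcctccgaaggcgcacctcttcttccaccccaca
Psme4 (chr11:30771525-30771774, plus strand): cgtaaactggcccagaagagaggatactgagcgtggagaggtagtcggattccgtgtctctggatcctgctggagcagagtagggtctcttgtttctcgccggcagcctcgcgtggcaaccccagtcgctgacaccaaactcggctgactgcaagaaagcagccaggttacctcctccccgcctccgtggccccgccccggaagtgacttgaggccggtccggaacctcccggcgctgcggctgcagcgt
Psmb5 and Psmb6 each held 1 match, at bases -47 to -39 and -9 to -1 counted from the start, and Psmb8 and Psme4 held none. A window was found for 43 of the 51 members. The TGACNNNGC core, searched on both strands, was in 5 of the 43 (Psmb5, Psmb6, Psmc6, Psmd12 and Psmd9), or 11.6%, against 11.5% of the 27025 genes with a window. CCAAT was in 16 of 43, or 37.2%, against 37.5%. The interferon-stimulated response element core (GAAA, any 2 bases, GAAA) was in 3 of 43 (Psmb3, Psmd4 and Psmd9), or 6.98%, against 3.46%, and in 0 of the 3 immunoproteasome genes. Matches of different motifs overlapped in 0 cases.

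Most members were slightly lower in nanoplastic kidneys and none passed the test over all genes. After removal of low counts 49 of the 51 members were tested, and Psma8 and Psmb11 were not. The fitted log2 fold change was below 0 in 47 of the 49, against 48.1% of all genes tested, and the median of the members was -0.08, or -5.45%, against 0.01 for all 18092 genes. These 49 include Psmc3ip and Psme3ip1. Without them 45 of 47 tested proteasome genes were below 0, with a median of -0.09. With edgeR's quasi-likelihood test 0 members had an adjusted p under 0.05, as did 0% of all genes, and the lowest adjusted p of a member was 0.542. At an unadjusted p under 0.05 there were 6 members, all lower (Psme4, Psmd7, Psmd12, Psmd2, Psme3 and Psma1), where 3.50% of all genes were called lower and 3.69% higher. DESeq2 and limma-voom also called 0 members after adjustment. At the unadjusted level they called 5 and 6, all lower, where 1.62% and 3.52% of all genes were called lower. The DESeq2 share is over 31335 genes, with low counts kept, and the limma-voom share over 18092, so the 2 are not alike. In CPM the groups did not overlap in 8 members, all lower in nanoplastic: the 6 named above, Psmc5 and Psmd1. Over all genes 6.32% did not overlap in CPM in the lower direction and 6.54% in the higher. In deposited TPM the groups stayed apart in Psmd7 and Psmd12 and overlapped in Psme4, Psme3, Psma1, Psmd2, Psmc5 and Psmd1. For 47 of 49 members the 95% interval of the edgeR fit lay inside 1.5-fold up and down. The exceptions were Psmb9 and Psme2b, while for all genes this share was 63.1%. All members are protein-coding, and for the 14073 protein-coding genes tested the share was 75.7%. Of those 14073 genes 50.4% had a log2 fold change below 0. At an unadjusted p under 0.05 in the edgeR fit 573 of them were lower, and 1012 did not overlap in the lower direction. These members are measured in the same 6 libraries and are not independent of each other.

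**Figure D1:**
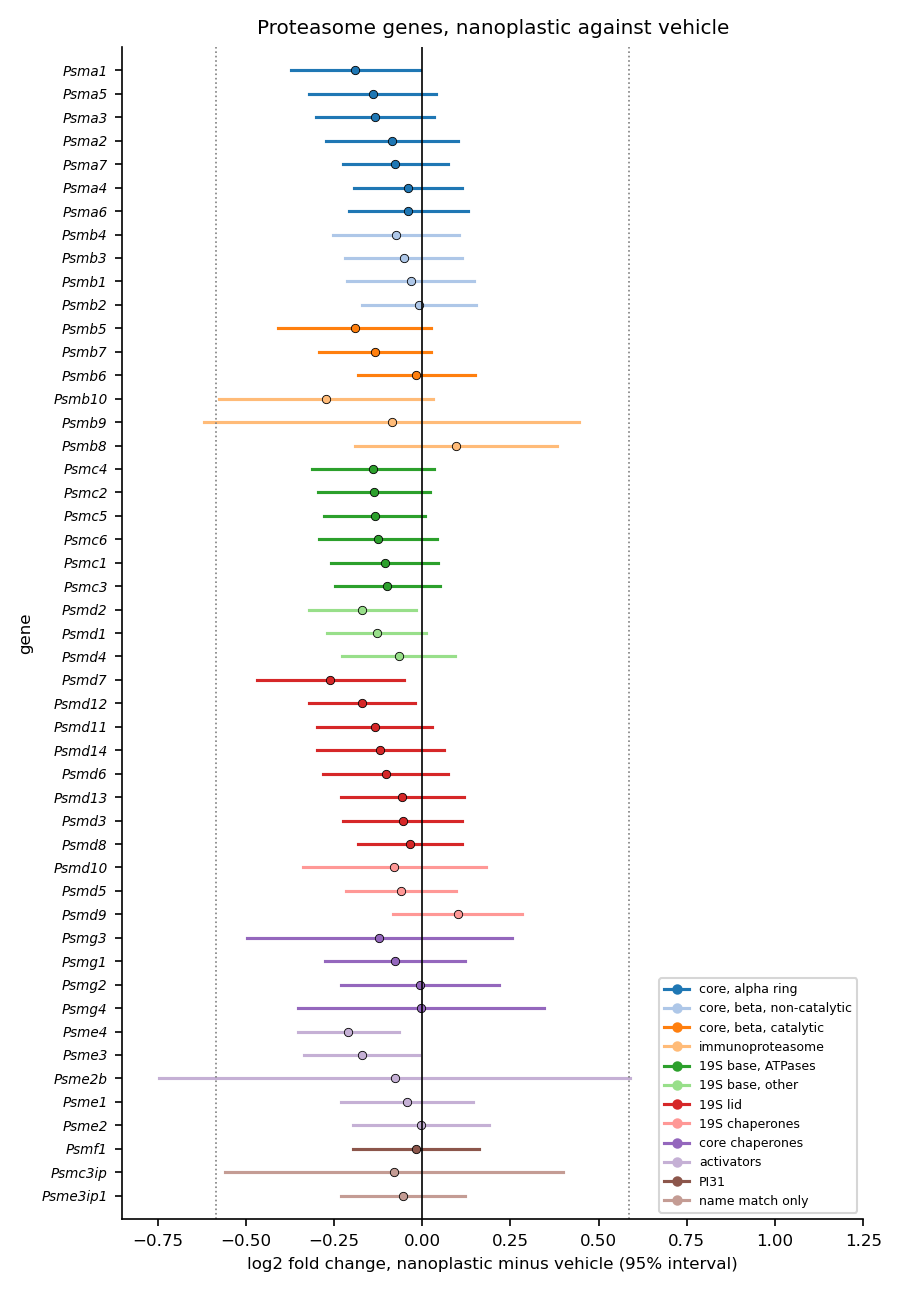
Log2 fold change of the 49 tested members, nanoplastic minus vehicle, from edgeR (points) with 95% intervals (lines), coloured by class; dotted lines mark a change of 1.5-fold. The points lie between -0.27 and 0.10, and 47 of 49 are below 0.

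The members' median stayed below 0 in every alternative run, while its size and the number of calls moved with the scaling and with single mice. With library size alone in place of TMM, 36 of 49 members were below 0, the median was -0.04 against 0.05 for all genes, and 2 members were lower at an unadjusted p under 0.05 against 2.07% of all genes. The same change moved the lower share of all genes called at that level from 48.7% to 26.9%. On deposited TPM 30 of 49 members were below 0, with a median of -0.01 against 0.07 for all genes. Vehicle 2 held the highest value of all 6 libraries in 31 of 49 members, and vehicle 3 the lowest vehicle value in 41. Without vehicle 2 the unadjusted calls were 1 in place of 6, all lower, where 1.71% of all genes were called lower in the same fit. Without vehicle 3 they were 13, against 4.03% of all genes, and without nanoplastic 2 they were 2, against 2.56%. Without vehicle 3 and nanoplastic 1, the libraries that carry adipocyte transcripts, they were 7, against 4.44% of all genes, and the median was -0.13. Scores, the mean log2 CPM of a class minus its vehicle mean, put vehicle 3 at -0.10 over all members, between the nanoplastic values of -0.09, -0.11 and -0.06, while vehicle 1 and 2 stood at 0.03 and 0.07.

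**Figure D2:**
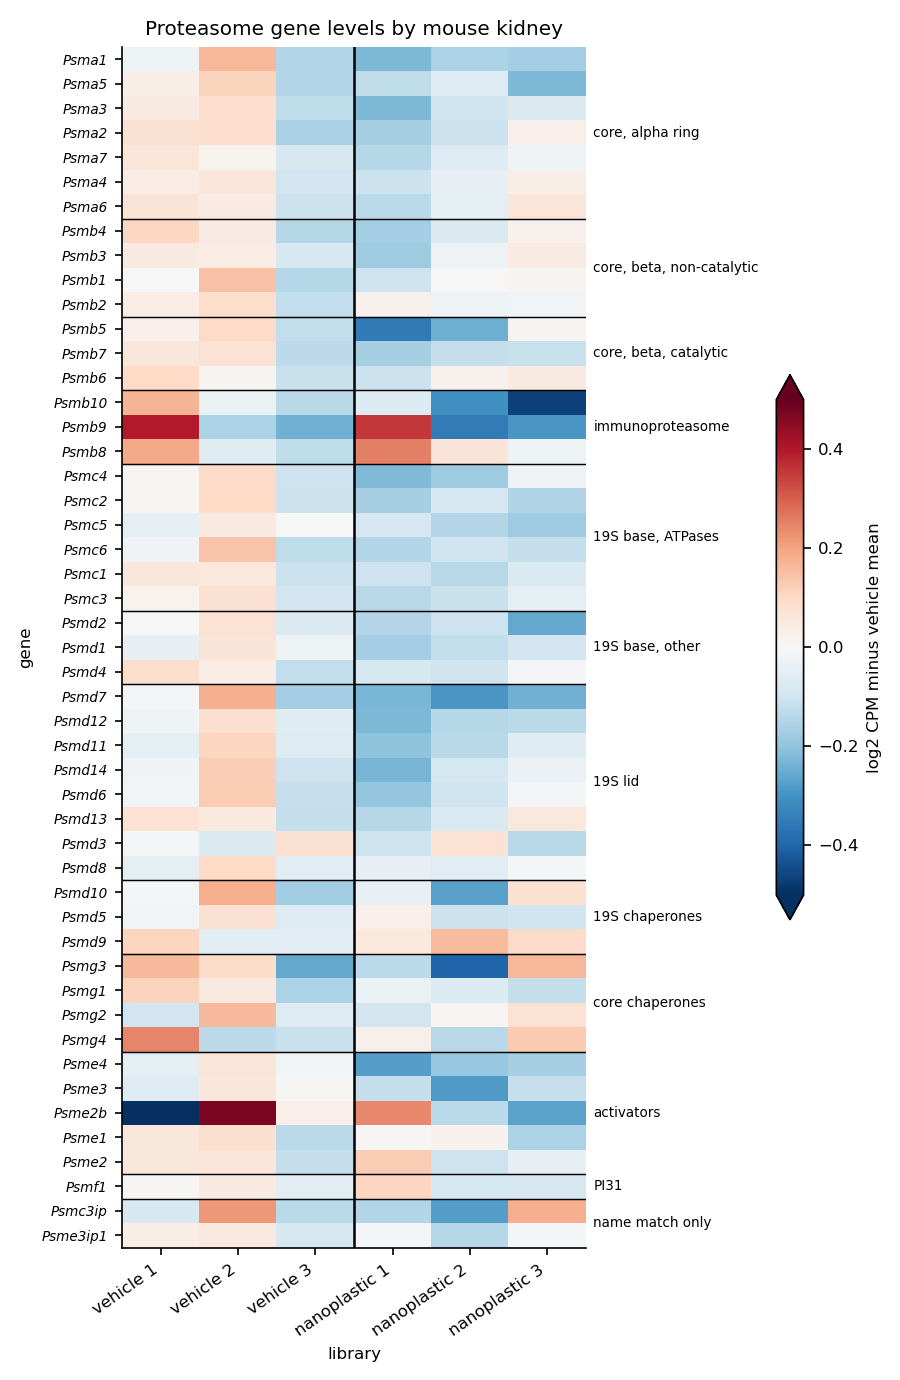
Log2 CPM of each tested member (rows, grouped by class) in each library (columns), minus the mean of the vehicle mice; colours stop at 0.5 in either direction. Vehicle 2 is the highest library in 31 of 49 rows, and vehicle 3 is the lowest vehicle library in 41.

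The constitutive core was lower by small amounts in all of its genes, with overlap between groups in all but 1. Over all genes 6.32% did not overlap in the lower direction. The 7 alpha and 7 beta genes had log2 fold changes from -0.19 to -0.01, with a median of -0.08, and 14 of 14 were below 0. Psma1, an alpha ring subunit, measured 83.2, 94.6 and 76.1 CPM in vehicle mice 1 to 3 and 72.2, 75.5 and 74.9 CPM in nanoplastic mice 1 to 3. All nanoplastic values were below all vehicle values, with vehicle 3 close to them (log2 fold change -0.19, SE 0.08, edgeR adjusted p = 0.683). Psma3, of the same ring, measured 128, 132 and 114 CPM in vehicle and 106, 116 and 118 CPM in nanoplastic mice, so that vehicle 3 was below nanoplastic 2 and 3. The non-catalytic beta subunits Psmb1 to Psmb4 stayed nearest to their vehicle level, with a median log2 fold change of -0.04. Of these Psmb4 measured 136, 131 and 115 CPM in vehicle and 113, 121 and 129 CPM in nanoplastic mice, and Psmb3 measured 77.1, 76.7 and 70.8 against 66.1, 73.5 and 77.0 CPM. Both overlapped widely.

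Among the constitutive catalytic subunits, Psmb5, which encodes the chymotrypsin-like beta5 subunit, had the largest difference. It measured 89.4, 93.9 and 80.5 CPM in vehicle and 68.7, 74.1 and 88.5 CPM in nanoplastic mice. Nanoplastic 1 and 2 were below all vehicle mice and nanoplastic 3 was within them (log2 fold change -0.19, SE 0.10, edgeR adjusted p = 0.715). Psmb7, which encodes the trypsin-like beta2 subunit, measured 115, 117 and 101 CPM in vehicle and 98.9, 102 and 103 CPM in nanoplastic mice (log2 fold change -0.13, SE 0.07). Psmb6, which encodes the caspase-like beta1 subunit, measured 114, 107 and 98.4 CPM and 98.6, 108 and 109.8 CPM, with a 95% interval in log2 fold change from -0.18 to 0.15. The reads of Psmb5 and Psmb7 were partly divided among genes, as their counts were not whole in some library, while those of Psmb6 were whole.

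The immunoproteasome genes were expressed at low levels, and their differences had both signs. Psmb8, which encodes beta5i, measured 9.47, 7.98 and 7.61 CPM in vehicle and 9.91, 8.68 and 8.16 CPM in nanoplastic mice (log2 fold change 0.10, SE 0.13, edgeR adjusted p = 0.889). Psmb9, which encodes beta1i, measured 5.61, 3.82 and 3.61 CPM in vehicle and 5.44, 3.34 and 3.48 CPM in nanoplastic mice, with mouse 1 of each group well above the others. Psmb10, which encodes beta2i, measured 10.7, 9.28 and 8.62 CPM in vehicle and 9.06, 7.68 and 6.86 CPM in nanoplastic mice (log2 fold change -0.27, SE 0.14, edgeR adjusted p = 0.712). The groups overlapped in all 3 genes, and the median log2 fold change of the 3 was -0.09. That median was 0.14 without vehicle 1, -0.35 without nanoplastic 1 and -0.45 without vehicle 3 and nanoplastic 1. Leukocytes are rich in immunoproteasome, and the 12 tested of 16 leukocyte markers were all below 0, with a median log2 fold change of -0.20. Their summed level was 237.5 to 273 CPM in vehicle and 229 to 232 CPM in nanoplastic mice, with the B and T cell genes Cd79a, Cd3e and Cd3d under 1 CPM throughout. Their part in the immunoproteasome values was not tested. In whole kidney, fewer cells of a type and less RNA per cell cannot be told apart.

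The share of each inducible subunit over the constitutive one it replaces did not differ beyond the spread between mice. Psmb8 came to 10.6%, 8.50% and 9.45% of Psmb5 in CPM in vehicle and 14.4%, 11.7% and 9.22% in nanoplastic mice. Nanoplastic 1 and 2 were above all vehicle mice and nanoplastic 3 was within them (log2 difference 0.29, exact two-sided permutation test p = 0.3, 0.6 after adjustment over 3 pairs). Psmb9 over Psmb6 was 4.05% ± 0.755 and 3.93% ± 1.38 (SD, n = 3 each; exact permutation p = 0.7). Psmb10 over Psmb7 was 8.58% ± 0.654 and 7.79% ± 1.26 (SD, n = 3 each; exact permutation p = 0.4, 0.6 after adjustment). With 3 against 3 this test cannot go below 0.1.

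**Figure D3:**
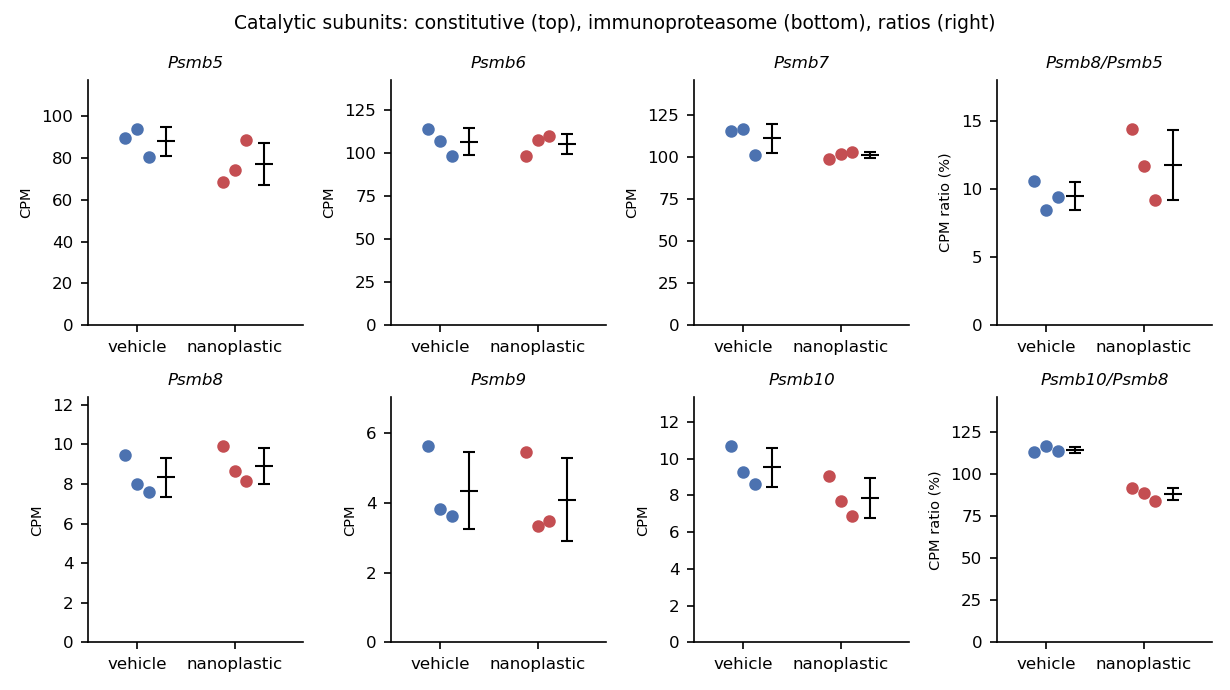
CPM of the constitutive catalytic subunits (top) and of the inducible subunit that replaces each (bottom), and ratios in percent (right column); points are mice in the order 1 to 3, and bars are mean and SD, n = 3 each, with all axes starting at 0. Groups overlap in all 6 genes and in Psmb8/Psmb5, and do not overlap in Psmb10/Psmb8, a ratio chosen after its values were seen.

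In the regulatory particle all 17 genes were below 0, from -0.26 to -0.04 with a median log2 fold change of -0.12. In CPM the groups did not overlap in 5 of the 17 (Psmd7, Psmd12, Psmd2, Psmd1 and Psmc5), all lower. Over all genes 6.32% did not overlap in that direction. The score of the particle was 0.00, 0.08 and -0.08 in vehicle mice 1 to 3 and -0.15, -0.11 and -0.09 in nanoplastic mice. On this score the groups did not overlap, but vehicle 3 lay next to nanoplastic 3. The trait was not particular to the particle. Scores of the leukocyte markers, other assembly and bound factors, and shuttle and segregase genes also did not overlap, all lower. The core score was 0.05, 0.08 and -0.12 against -0.16, -0.07 and -0.03, with overlap. Whether the particle differed from the core was not tested.

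In the base, the ATPases Psmc1 to Psmc6 had log2 fold changes from -0.14 to -0.10. Psmc5 measured 50.9, 54.2 and 52.6 CPM in vehicle and 49.5, 47.5 and 46.5 CPM in nanoplastic mice (edgeR adjusted p = 0.705). Psmc2 measured 61.8, 66.1 and 57.3 CPM and 54.9, 58.0 and 55.5 CPM, with nanoplastic 2 above vehicle 3. Psmd2 encodes the scaffold subunit Rpn1, which docks ubiquitin receptors. It measured 188, 197 and 179 CPM in vehicle and 169.7, 175 and 157 CPM in nanoplastic mice, with all nanoplastic mice below all vehicle mice (log2 fold change -0.17, SE 0.07, edgeR adjusted p = 0.652). Psmd1, which encodes the other large scaffold Rpn2, measured 114, 122 and 115 CPM in vehicle and 104, 107 and 109 CPM in nanoplastic mice, again without overlap. Psmd4, a ubiquitin receptor, overlapped (log2 fold change -0.07, SE 0.07).

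In the lid, which removes ubiquitin chains, Psmd7 had the largest difference of the particle. Psmd7 encodes Rpn8, the partner of the deubiquitinase Psmd14. It measured 23.4, 26.7 and 20.9 CPM in vehicle and 20.1, 19.2 and 19.9 CPM in nanoplastic mice, and vehicle 3 exceeded nanoplastic 1 by less than 1 CPM (log2 fold change -0.26, SE 0.09, edgeR adjusted p = 0.617). Psmd12, the lid subunit Rpn5, measured 54.4, 58.4 and 53.0 CPM in vehicle and 47.2, 49.97 and 50.2 CPM in nanoplastic mice (log2 fold change -0.17, SE 0.07). Psmd14 itself overlapped, at -0.12 (SE 0.08) in log2 fold change. The remaining lid genes Psmd3, Psmd6, Psmd8, Psmd11 and Psmd13 had log2 fold changes from -0.13 to -0.04 and overlapped.

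Of the 7 assembly chaperones 6 were below 0, with a median log2 fold change of -0.06, and the groups overlapped in all 7. Of the base chaperones, Psmd9 was one of only 2 members above 0, with Psmb8, and measured 18.5, 16.6 and 16.5 CPM in vehicle and 17.8, 19.2 and 18.4 CPM in nanoplastic mice (log2 fold change 0.10, SE 0.08). Psmd5 measured 55.6, 59.2 and 53.7 CPM and 57.2, 52.1 and 52.4 CPM. Psmd10, also known as gankyrin, stood at -0.08 on the log2 scale (SE 0.12). Of the core chaperones Psmg1 to Psmg4, Psmg1 measured 20.9, 19.99 and 17.3 CPM in vehicle and 18.9, 18.5 and 17.8 CPM in nanoplastic mice, and Psmg3 measured 8.46, 8.06 and 6.33 against 6.90, 5.72 and 8.48 CPM. The fold changes of Psmg2 and Psmg4 on the log2 scale were -0.007 (SE 0.10) and -0.004 (SE 0.16).

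All 5 activator genes had a log2 fold change below 0. In CPM the groups did not overlap in Psme4 and Psme3, both lower, where 6.32% of all genes did not overlap in that direction. The median log2 fold change of the 5 was -0.08, -0.20 without vehicle 1 and 0.01 without nanoplastic 3. Psme4 encodes PA200, a single large nuclear activator. It measured 318, 343 and 326 CPM in vehicle and 272, 289 and 293 CPM in nanoplastic mice, with all nanoplastic mice below all vehicle mice (log2 fold change -0.21, SE 0.06, edgeR adjusted p = 0.542). Psme3, which encodes the nuclear PA28 gamma, measured 38.0, 41.4 and 39.9 CPM in vehicle and 36.6, 32.7 and 36.7 CPM in nanoplastic mice (log2 fold change -0.17, SE 0.07, edgeR adjusted p = 0.680). Psme1 and Psme2 encode the alpha and beta chains of the interferon-induced PA28. Psme1 measured 30.9, 31.4 and 27.1 CPM in vehicle and 29.8, 30.1 and 26.6 CPM in nanoplastic mice, and Psme2 measured 27.2, 27.3 and 24.1 against 28.6, 24.4 and 25.4 CPM. Both overlapped. Psme2b, a near-identical copy of Psme2 whose share of the reads is uncertain, measured between 0.974 and 1.91 CPM. Whether Psme4 differed from Psme1 in response was not tested.

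Psmf1 encodes PI31, named as an inhibitor of the core. It measured 22.9, 23.5 and 22.0 CPM in vehicle and 24.6, 21.5 and 21.5 CPM in nanoplastic mice (log2 fold change -0.02, SE 0.08). Psma8, the alpha subunit of the testis proteasome, had 2 to 8 counts in a library, and Psmb11, the thymus beta subunit, had 1 count in nanoplastic 1 and 0 in the others. Psmc3ip, a recombination factor, and Psme3ip1, a binding partner of PA28 gamma, stood at -0.08 (SE 0.22) and -0.05 (SE 0.08) on the log2 scale.

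Levels per length were taken as deposited TPM divided by the median TPM of the 14 constitutive core genes in the same library. The class medians differed, but the ranges of several classes overlapped. In vehicle mice the core genes ranged from 0.395 for Psma2 to 1.58 for Psmb6, while the constitutive core particle holds these subunits in equal numbers. Psma2 and Psmb6 had vehicle means of 104 and 107 CPM but 23.9 and 95.3 TPM. Their gap thus lies in the lengths by which TPM divides, and these were not checked here. Regulatory particle genes ranged from 0.147 for Psmd7 to 1.01 for Psmc3, with lid genes at a median of 0.364 and ATPases at 0.616. Psme4 stood at 0.482 ± 0.034 and was the highest of the activators, above Psme2 at 0.332 ± 0.025 and Psme1 at 0.307 ± 0.008 (SD, n = 3 each). Psme2 was above Psme1 in TPM in every library of both groups. Immunoproteasome genes stood at 0.131 ± 0.018 for Psmb10, 0.075 ± 0.006 for Psmb8 and 0.032 ± 0.007 for Psmb9 (SD, n = 3 each). On this scale the order of the 3 was the same in nanoplastic mice, at 0.124, 0.091 and 0.036, with Psmb10 and Psmb8 nearer to each other.

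**Figure D4:**
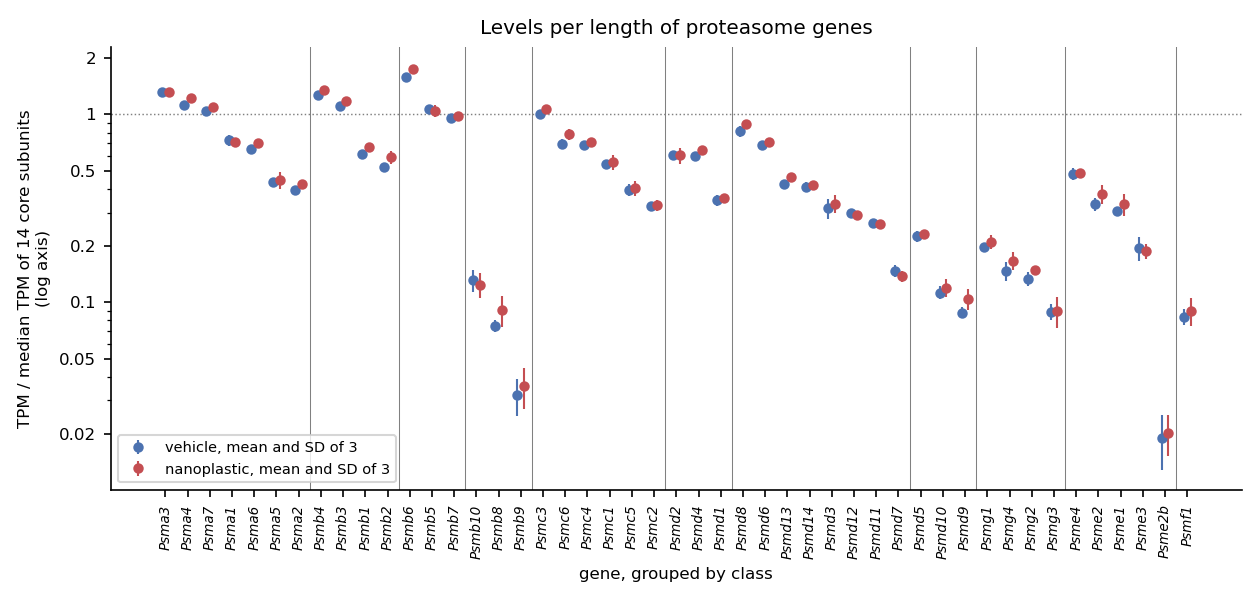
TPM of each proteasome gene over the median TPM of the 14 constitutive core genes in the same library (log axis), grouped by class; points and bars are mean and SD of 3 mice, and Psma8 and Psmb11, which had almost no counts, are left out. The immunoproteasome genes lie between 0.032 and 0.131 in vehicle mice, against 0.395 to 1.58 for the core.

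Genes that make, feed or regulate the proteasome had small differences, and 0 of them passed over all genes. Nfe2l1 measured 120.0, 118 and 118 CPM in vehicle and 125, 116 and 121 CPM in nanoplastic mice, with a 95% interval in log2 fold change that excluded 1.5-fold (0.02, SE 0.06). The 10 genes of its pathway were divided 5 above and 5 below 0, with Bach1, a repressor that competes at the same elements, at 0.12 (SE 0.07) and Ddi2, the protease that activates NRF1, at -0.12 (SE 0.10) in log2 fold change. Of 13 other assembly and proteasome-bound factors 10 were below 0 with a median of -0.08. Pomp, the chaperone that completes the core, measured 56.5, 58.8 and 50.8 CPM in vehicle and 50.7, 48.7 and 56.2 CPM in nanoplastic mice. The deubiquitinases Uchl5 and Usp14 stood on the log2 scale at -0.14 (SE 0.08) and -0.14 (SE 0.09). Of 10 shuttle and segregase genes 9 were below 0. Vcp, the ATPase that extracts ubiquitinated proteins, was the 1 with an unadjusted p under 0.05, where 3.50% of all genes were called lower. Vcp measured 382, 384 and 358 CPM in vehicle and 315, 339 and 340.3 CPM in nanoplastic mice, without overlap. Rad23b stood at -0.11 (SE 0.07). The ubiquitin genes and E1 enzymes had a median of -0.02, with Ubb at -0.11 (SE 0.07) and Uba6 at -0.06 (SE 0.07).

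Of the interferon and antigen processing genes 12 of 15 tested were above 0, with a median log2 fold change of 0.08. Irf1, a transcription factor that drives the immunoproteasome genes, measured 17.9, 17.2 and 16.5 CPM in vehicle and 21.4, 18.8 and 18.7 CPM in nanoplastic mice, without overlap (log2 fold change 0.19, SE 0.09). It was the 1 gene of the list with an unadjusted p under 0.05, where 3.69% of all genes were called higher. H2-K1, an MHC class I gene, had 0.15 (SE 0.09). Tap1, the peptide transporter gene beside Psmb9, measured 11.7, 10.6 and 9.09 CPM and 14.2, 11.02 and 10.7 CPM. Tap2, which encodes the other chain of the transporter, measured 15.7, 15.4 and 15.0 CPM in vehicle and 14.2, 16.2 and 12.4 CPM in nanoplastic mice, with a log2 fold change of -0.11 (SE 0.10). Ifng had 0.208 CPM or less in each library. Without vehicle 3 and nanoplastic 1 the median of this list was -0.01.

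The heat shock and erythroid lists were lower on balance in nanoplastic mice and also differed between the mice of a group. Of 10 heat shock genes 9 were below 0, with a median log2 fold change of -0.30 and 5 lower at an unadjusted p under 0.05. All 5 erythroid markers were lower at that level, with a median of -0.49. Over all genes 3.50% were called lower at that level. After adjustment by edgeR 0 genes of either list passed. The heat shock score was 0.56 in vehicle 2, the mouse with the highest proteasome score, and -0.49 and -0.07 in vehicle 1 and 3, against -0.38, -0.56 and -0.22 in nanoplastic mice. Hsp90aa1, a cytosolic chaperone, measured 414, 621 and 476 CPM in vehicle and 329, 336 and 414 CPM in nanoplastic mice, and the mitochondrial chaperone Hspd1 stood at -0.25 (SE 0.08) in log2 fold change. The 10 heat shock genes summed to 3953 to 5379 CPM in vehicle and 3042 to 4280 CPM in nanoplastic mice. The 5 erythroid markers had scores of 0.14, 0.20 and -0.34 in vehicle and -0.30, -0.63 and -0.49 in nanoplastic mice, so vehicle 3 was the low vehicle mouse there too. They summed to 579 to 861 CPM in vehicle and 488 to 626 CPM in nanoplastic mice. Their part in the proteasome values was not tested. Adipocyte and urothelial markers were highest in nanoplastic 1, with Adipoq at 18.03 CPM there, 5.52 CPM in vehicle 3 and at most 0.104 CPM elsewhere.

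**Figure D5:**
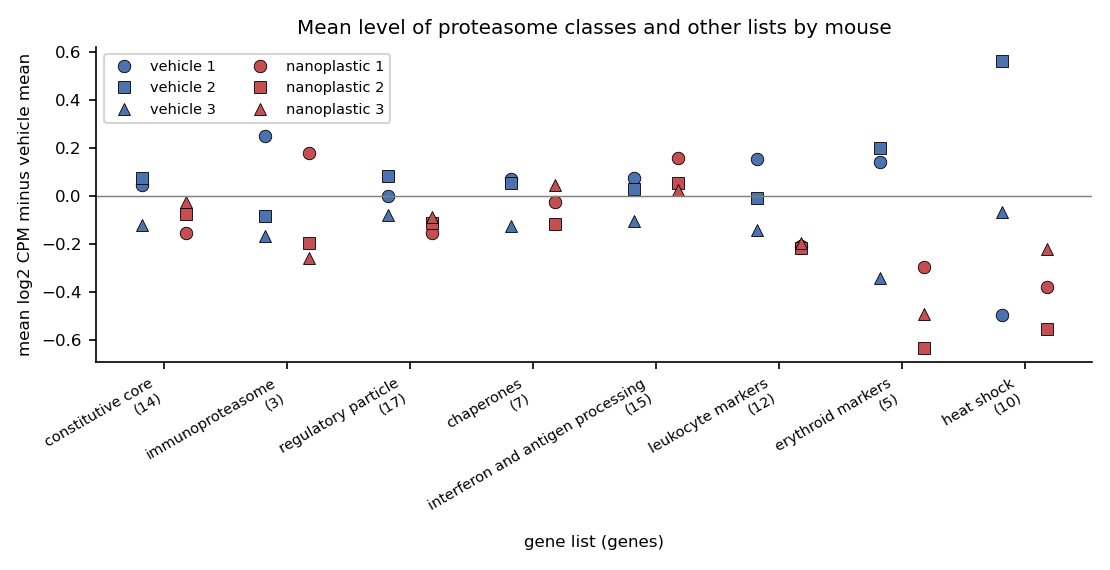
Mean log2 CPM of each list minus its vehicle mean, 1 symbol per mouse; the number of genes is under each name. Vehicle 3 lies with the nanoplastic mice in the core and erythroid lists, and vehicle 2 stands apart in heat shock at 0.56.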

How the data were processed

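Submitters' processing notes name STAR 2.7.9a and RSEM 1.3.3, with FastQC and Trim Galore 0.6.6 before them, and build GRCm39. Annotation release and strandedness are not given in the sources used here. Per the file headers, expected counts (unnormalized), TPM and FPKM (both scaled by length and depth) were deposited for every gene. TPM served for levels between genes and for alternatives, FPKM for 1 alternative.

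GENCODE vM21 named 51884 of 57180 listed genes, and Psme3ip1 was named through RefSeq. Expected counts were rounded, low genes were removed (filterByExpr), and TMM factors were applied. The test was edgeR 4.0.16 (R 4.3.3), quasi-likelihood with group as its only term, and Benjamini-Hochberg adjustment over 18092 genes at 0.05. Standard errors are the fold change over the root of F, and intervals are 95%. Scores used log2 CPM with a prior count of 2. Alternatives used DESeq2 1.42.0, limma 3.58.1, other scalings, no filter, a replicate block and left-out libraries. The edgeR step was tested on simulated data.

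Each mouse's values are given for catalytic subunits, activators, Psmf1 and the top 2 by p in the remaining classes. Of pathway lists, Nfe2l1, Pomp and the top 2 by p were named. Tap1, Tap2, Ifng and marker genes were named after their values were seen. Members and lists were chosen with earlier results of these data known. Libraries of a group differed by more than counting noise. Counts of 15 members were not whole in some library, since RSEM divides reads that fit several genes.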

Additional observations from a re-analysis of the deposited data

How the results depend on the processing

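No member had an adjusted p under 0.05 in the edgeR fit or in any of its 15 alternatives, the count being 0 in each; the smallest adjusted value of a member was 0.178 (DESeq2). Over all genes the adjusted calls were 0 with edgeR, 19 higher and 36 lower with DESeq2, 100 higher and 107 lower with no filter, 11 higher and 16 lower without vehicle 3 and nanoplastic 1, 3 and 2 without nanoplastic 1, and 2 and 0 without nanoplastic 3. That pair was left out after seeing the data, and a robust edgeR fit was tried after it too. The robust fit called 0 genes after adjustment and 6 members before it, all lower, where 3.46% of all genes were called lower. Members with an unadjusted p under 0.05 were all lower and numbered 2 with library size alone, where 2.07% of all genes were called lower, 0 on log2 TPM with limma (1.38% of all genes) and 1 to 13 with 1 library left out (1.71% to 4.29% of all genes). On log2 TPM 30 members were below 0, with a median of -0.012 over all members and -0.055 over the regulatory particle. With 1 library left out the median was -0.35 to 0.14 for the immunoproteasome and -0.20 to 0.0098 for the activators. Without vehicle 3 and nanoplastic 1 it was -0.45 for the immunoproteasome, -0.049 for the shuttle genes and -0.013 for the interferon list. The medians of other assembly factors and shuttle genes were -0.041 and -0.037 with library size alone, and -0.088 to -0.036 and -0.087 to -0.039 with 1 library left out.

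The Psmb9 to Psmb6 log2 difference was -0.079, turned to 0.024 in TPM, and was -0.35 to 0.065 with 1 library left out. Of 49 tested members 26 kept their sign in every alternative, 11 turned with library size alone and 17 on log2 TPM. For the 33 members with a fold change or values in every mouse in the text, 19 kept it. Their log2 fold changes that turned were 0.027 for Psmb6, 0.0030 for Psme1, 0.043 for Psme2, 0.029 for Psmf1, 0.037 for Psmg2 and 0.040 for Psmg4 with library size alone. They were 0.0039 for Psme2, 0.00060 for Psmg2 and 0.0027 for Psmg4 with TMM over protein-coding genes and -0.047 for Psmb8 and 0.0089 for Psmg2 without vehicle 3 and nanoplastic 1, and 0.0014 for Psmg4 with the replicate block. On log2 TPM they were 0.046 for Psmb6, 0.066 for Psmb9, 0.017 for Psme1, 0.081 for Psme2, 0.0085 for Psme2b, 0.0068 for Psme3ip1, 0.065 for Psmc3ip, 0.054 for Psmg2 and 0.086 for Psmg4. With 1 library left out those that turned ranged over -0.071 to 0.035 for Psmb6, -0.35 to 0.14 for Psmb9, -0.072 to 0.045 for Psme2, -0.070 to 0.13 for Psmg4, -0.30 to 0.18 for Psme2b, -0.083 to 0.017 for Psmf1, -0.22 to 0.034 for Psmc3ip, -0.16 to 0.016 for Psmd10, -0.056 to 0.078 for Psmg2, -0.10 to 0.0093 for Psmb3, -0.27 to 0.0083 for Psmg3 and -0.11 to 0.0098 for Psme1. The cause was not tested.

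Deviations of same-numbered mice correlated at -0.009, -0.068 and 0.10, and those of differently numbered mice at -0.076 to 0.090. With 3 libraries in each group these values cannot decide whether the replicate numbers pair the mice. With the replicate block 6 members had an unadjusted p under 0.05, all lower, where 3.50% of all genes were called lower. In that fit 46 members were below 0 and the median of the members was -0.083. With 3 mice a group the median half-width of a member's 95% interval was 0.17 on the log2 scale.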

Other observations

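Within the immunoproteasome, Psmb10 relative to Psmb8 separated the groups. This pair was picked after the values were seen, out of many possible pairs, and is a description only. Psmb10 was 113%, 116% and 113% of Psmb8 in CPM in vehicle mice 1 to 3, and 91.4%, 88.5% and 84.1% in nanoplastic mice. In deposited TPM, per length, Psmb10 was above Psmb8 in every mouse, at 1.68, 2.04 and 1.53 times Psmb8 in vehicle and 1.302, 1.41 and 1.37 times in nanoplastic mice, so the groups again did not overlap but the vehicle spread was wide. In CPM the group means were 114% ± 1.89 and 88.0% ± 3.68 (SD, n = 3 each). The exact two-sided permutation p was 0.1, the smallest that 3 against 3 can give. Any pair picked because its groups do not overlap returns this value, so it adds no evidence. The counting error of the log2 ratio in a single library was 0.127 to 0.170. This is above the spread between mice in both groups, with an SD of the log2 ratio of 0.023 in vehicle and 0.060 in nanoplastic mice. The SDs above thus understate the error. Psmb8 and Psmb10 encode the beta5i and beta2i subunits, which sit at different sites of the same core.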
